A study of Homo sapiens with 2 samples.

Results

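The genes of human chromosome 22 were compared between K562, a chronic myeloid leukaemia cell line labelled as erythrocyte, and MOLT4, a cell line labelled as T lymphoblast. Members were all rows of the authors' full gene table whose locus lies on chromosome 22, 1386 of 60586 rows. The chromosome was selected on the FPKM ratios of the lines, which shift near BCR, so those ratios are a description and carry no test. Both lines were cultured alike, with no treatment named, in DMEM supplemented with serum and antibiotics, and bulk RNA of a flask of each was sequenced. The values are averages over a culture, so a change in all cells and a change in some of them cannot be told apart. The table holds 1 value per gene and line, in FPKM (fragment counts scaled to transcript length and to the mapped fragments of the library). The series design speaks of 3 biological replicates, but no replicate values were used here, so no spread can be given, and the depth is unknown. The labelled cell types were checked with 14 marker genes: 6 of 6 red cell genes were higher in K562 (58.9 to 279 FPKM, against 0 to 0.139 FPKM in MOLT4) and 8 of 8 T lymphoblast genes were higher in MOLT4 (50.9 to 648 FPKM, against 0 to 29.7 FPKM in K562).

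Chromosome 22 is a small, gene-dense chromosome whose long arm carries nearly all of its protein-coding genes. Near the centromere lies the region lost in 22q11.2 deletion syndrome, followed by the immunoglobulin lambda locus and then by BCR, which encodes a kinase and GTPase regulator. In the Philadelphia translocation BCR is cut and joined to the kinase gene ABL1 of chromosome 9: the centromere side of chromosome 22 stays with the fusion gene, and the part beyond the cut moves to chromosome 9. K562 carries this fusion. DNA copy number and fusion transcripts were not measured in these files, and the values are per gene, so fused and unfused transcripts of BCR cannot be told apart.

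Sequences upstream of 6 genes are shown because these genes stand at the edges of the shift: DGCR6 and DGCR2 on either side of its centromere edge, PRAME and BCR as its last genes, and IGLL1 and SMARCB1 beyond its telomere edge. Each is the 250 bases before the first start that RefSeq lists for the gene (GRCh38.p14), read 5' to 3' on the strand of the gene. They lie at chr22:18906070-18906319 (DGCR6, plus strand), chr22:19122413-19122662 (DGCR2, minus), chr22:22559266-22559515 (PRAME, minus), chr22:23180259-23180508 (BCR, plus), chr22:23580291-23580540 (IGLL1, minus) and chr22:23786716-23786965 (SMARCB1, plus). Capitals mark the GC box GGGCGG and the GATA motif AGATAA on either strand, which cannot overlap each other.
DGCR6: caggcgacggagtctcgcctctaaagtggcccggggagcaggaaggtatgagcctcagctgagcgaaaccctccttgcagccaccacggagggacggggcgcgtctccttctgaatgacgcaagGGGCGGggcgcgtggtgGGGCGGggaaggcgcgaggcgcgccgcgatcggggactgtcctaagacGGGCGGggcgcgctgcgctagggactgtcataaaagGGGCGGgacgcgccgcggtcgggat
DGCR2: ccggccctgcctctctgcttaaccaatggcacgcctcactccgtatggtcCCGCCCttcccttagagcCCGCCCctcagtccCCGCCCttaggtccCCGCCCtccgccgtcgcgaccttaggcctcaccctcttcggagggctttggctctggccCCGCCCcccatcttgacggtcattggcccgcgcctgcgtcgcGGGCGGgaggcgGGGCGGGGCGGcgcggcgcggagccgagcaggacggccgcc
PRAME: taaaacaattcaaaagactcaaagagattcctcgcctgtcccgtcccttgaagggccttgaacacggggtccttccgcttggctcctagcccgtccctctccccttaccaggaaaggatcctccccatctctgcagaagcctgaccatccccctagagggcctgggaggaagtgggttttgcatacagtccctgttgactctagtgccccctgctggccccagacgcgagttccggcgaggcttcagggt
BCR: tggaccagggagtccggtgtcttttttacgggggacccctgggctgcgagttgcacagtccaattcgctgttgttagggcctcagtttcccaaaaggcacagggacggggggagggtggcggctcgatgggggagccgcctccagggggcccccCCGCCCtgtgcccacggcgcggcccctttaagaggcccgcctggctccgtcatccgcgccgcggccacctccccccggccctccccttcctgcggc
IGLL1: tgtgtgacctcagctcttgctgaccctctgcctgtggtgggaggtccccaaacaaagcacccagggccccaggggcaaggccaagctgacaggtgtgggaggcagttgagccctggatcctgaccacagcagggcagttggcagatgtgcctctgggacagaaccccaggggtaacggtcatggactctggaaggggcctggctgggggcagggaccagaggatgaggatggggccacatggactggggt
SMARCB1: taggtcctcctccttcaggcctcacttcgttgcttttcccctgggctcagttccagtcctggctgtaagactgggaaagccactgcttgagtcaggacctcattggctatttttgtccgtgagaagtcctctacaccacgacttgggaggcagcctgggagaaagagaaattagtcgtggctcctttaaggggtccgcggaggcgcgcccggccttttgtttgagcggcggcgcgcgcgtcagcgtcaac
DGCR2 held 8 GC boxes, DGCR6 held 4 and BCR held 1, while PRAME, IGLL1 and SMARCB1 held none, and AGATAA was in none of the 6. IGLL1 held 1 CpG and PRAME 9, against 32 in DGCR6, 30 in DGCR2, 20 in BCR and 16 in SMARCB1.

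Ratios were taken for the 352 members whose values averaged 1 FPKM or above, as log2((K562 + 1)/(MOLT4 + 1)), where values above 0 mean higher in K562 and the added 1 FPKM makes differences of low genes look smaller. The other 1034 members fell below this level, 538 of them listed at 0 in both lines. Of the 352, 273 reached 1 FPKM in both lines, 53 in K562 alone and 26 in MOLT4 alone, and the last 2 groups could pass only through the line in which they are high. ASPHD2 (mean 0.999 FPKM) lay just below the level and APOBEC3B-AS1 (mean 1.03 FPKM) just above it. The 352 genes occupy 251 deposited loci, and 166 of them share a locus with another gene of the set, so neighbouring values are not independent.

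Taken whole, chromosome 22 did not stand out. Its median log2 ratio was -0.086 over the 352 genes, against 0.058 over all 14118 genes at this level, and it was the seventh lowest of 23 chromosomes. At a Cuffdiff q of at most 0.05 (Benjamini-Hochberg), the authors' deposited table called 93 of the 352 genes upward in K562 and 91 upward in MOLT4. Over all tested genes with a mean of at least 1 FPKM, the calls made up 25.3% toward K562 and 20.8% toward MOLT4, and 46% in either direction. Among all 486 tested members, 109 and 107 were called, against 23.4% and 18.8% of all tested genes. The quartiles were at -0.73 and 1.17, and the ratios changed with position.

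**Figure D1:**
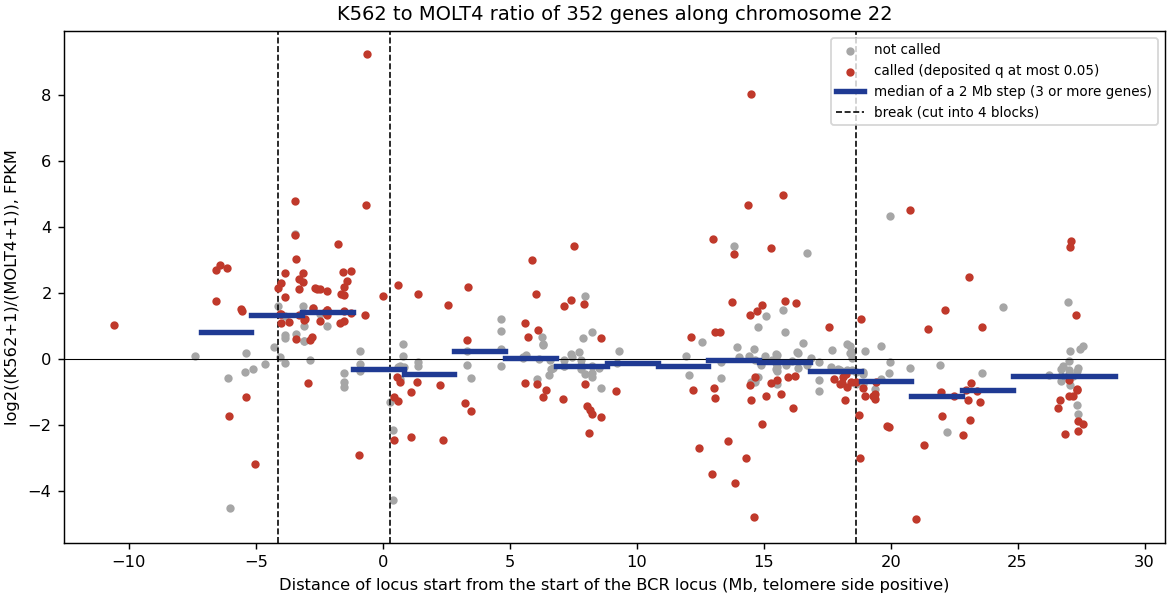
Log2 ratio of each of the 352 genes (points, red where called) against the distance of its locus start from BCR in Mb, with the median of each 2 Mb step (blue bars) and the breaks of a cut into 4 blocks (dashed lines). The steps just before BCR sit at 1.35 and 1.43, and those after it sit between -1.11 and 0.26.

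Stepping along the chromosome in windows of 2 Mb, the medians were highest in the 2 steps before the one with BCR, varied around 0 beyond it and were lowest between 44 and 48 Mb. The 12 genes at 16 to 18 Mb were mixed, with a median of 0.82, 7 genes higher in K562 and 5 higher in MOLT4. At 18 to 20 Mb the median was 1.35 over 27 genes, and at 20 to 22 Mb it was 1.43 over 39 genes, 34 of them higher in K562. These medians correspond to 2.54-fold and 2.69-fold with 1 FPKM added. At 22 to 24 Mb, the step that contains BCR, it was -0.30 over 22 genes. From 24 to 42 Mb the medians lay between -0.46 and 0.26. From 42 Mb to the end they were all lower still: -0.65 at 42 to 44 Mb, -1.11 at 44 to 46 Mb (9 genes), -0.93 at 46 to 48 Mb, -0.52 at 48 to 50 Mb (7 genes, all higher in MOLT4) and -0.50 at 50 to 52 Mb.

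To place the breaks, the ratios in locus order were cut into 3 blocks so that the summed absolute deviation from the block medians was smallest, with at least 10 genes a block. The first cut fell between BCR (locus 23179704 to 23318037, GRCh38) and the long noncoding RNA AP000344.1 (23446598 to 23460833), which are 129 kb apart. The second fell at 41800679, before CCDC134. The proximal block up to BCR held 88 genes with a median of 1.36, the middle block 186 genes with a median of -0.18 and the distal block 78 genes with a median of -0.69. Because the blocks were cut from these ratios, the differences between their medians are no test. The summed deviation fell to 86.8% of its value for a single block when the cut at BCR alone was made, and to 85.1% with both cuts.

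On the telomere side the ratio changed sign at the first cut. The last 5 genes before it were AC245060.7, ZNF280B, ZNF280A, PRAME and BCR, and the first 5 after it were AP000344.1, IGLL1, AP000345.2, RGL4 and GUSBP11. BCR was at 12.5 (MOLT4) and 50.0 FPKM (K562), and the zinc finger gene ZNF280B was at 4.75 and 13.6 FPKM. PRAME, a cancer-testis antigen gene that lies within the immunoglobulin lambda locus, was at 0.104 (MOLT4) and 666 FPKM (K562), and its neighbour ZNF280A was listed at 0 in MOLT4 and at 24.3 FPKM in K562. In the authors' deposited table each of these 4 was called higher in K562 (q = 0.000203). Beyond the gap all 5 genes were lower in K562. RGL4, which encodes a guanine nucleotide exchange factor, was at 10.1 (MOLT4) and 1.03 FPKM (K562) and GUSBP11, a pseudogene, at 8.38 and 3.21 FPKM, both called in the authors' deposited table (q = 0.000203 and 0.00567). IGLL1, a part of the surrogate light chain of B cell precursors, was at 18.4 and 0.0158 FPKM but missed the threshold in the authors' deposited table (q = 0.359). The 20 genes before the gap had a median ratio of 1.44, with 14 higher in K562. The 20 after it had a median of -0.65, with 4 higher in K562. Of the last 10 and 15 genes before the gap, 7 and 9 were higher in K562. Of the first 10 and 15 after it, 1 and 3 were. The cut was placed from these same ratios, so the difference is no test.

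**Figure D2:**
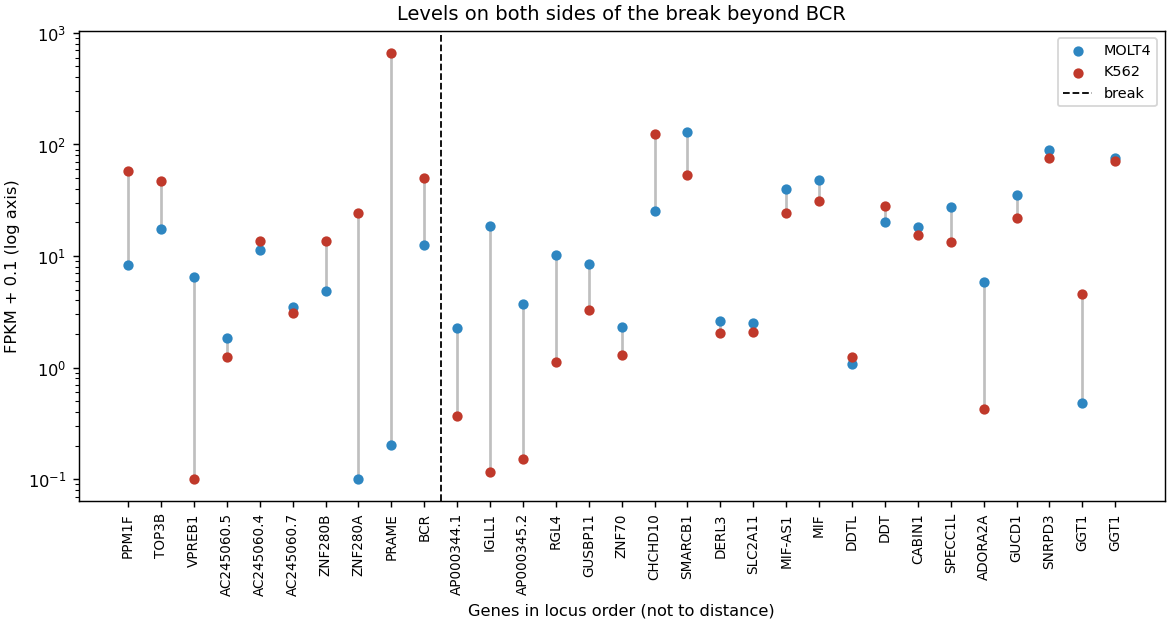
FPKM plus 0.1 on a log axis in MOLT4 (blue) and K562 (red) for the 10 genes before and the 21 genes after the break beyond BCR (dashed line), in locus order, with a grey line joining the lines' values. Red points lie above blue for 7 of the 10 genes up to BCR and below them for most genes after it, with CHCHD10 and the lower row of GGT1 among the exceptions.

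How exactly this edge is placed is limited by the genes that are on. Between PRAME and BCR lie 613 kb and 72 further rows without a ratio, lambda segments among them, of which the highest was GNAZ at 0.582 (MOLT4) and 0.309 FPKM (K562). Of 93 rows of the immunoglobulin lambda and surrogate light chain list, 91 fell below the filter, and the others were VPREB1 and IGLL1. Between BCR and AP000344.1 there were 6 rows without a ratio, led by LINC01659 at 1.26 (MOLT4) and 0.208 FPKM (K562). Inside the BCR locus itself the processed pseudogene FBXW4P1 and the small RNA row RN7SL263P, both below the filter, were at 0.0674 and 0 FPKM in MOLT4 and at 1.08 and 1.35 FPKM in K562. Whether reads were counted by strand is not given, so these could not be separated from BCR. When each line had to reach 1 FPKM, or only genes within 8-fold entered, the cut moved to 22283928, before AC245060.5, which leaves BCR on the other side. ZNF280A and PRAME drop out under those rules. With a mean of at least 5 FPKM it fell at 23567064, before IGLL1, and without a filter it fell at 21652270, before YPEL1.

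On the centromere side no cut was placed when 3 blocks were asked for. With 4 blocks, and also with least squares and 3 blocks, a cut fell between DGCR6 (locus 18906028 to 18947741) and the shared locus of DGCR2 and DGCR11 (19036282 to 19128449), 88.5 kb apart, and 4.14 Mb before BCR. The 18 genes before it had a median of 0.14, with 10 higher in K562. The 70 genes from there to BCR, called the raised stretch below, had a median of 1.39, or 2.63-fold with 1 FPKM added. Among the 4 nearest genes before the cut, 3 were not called in the authors' deposited table: DGCR6 was at 1.76 (MOLT4) and 2.57 FPKM (K562), the pseudogene PI4KAP1 at 4.62 and 4.06 FPKM, and PEX26, a peroxisome gene, at 15.3 and 12.2 FPKM. The other, USP18, which removes the interferon-induced protein ISG15 from other proteins, was at 21.6 (MOLT4) and 1.52 FPKM (K562) and was called there (q = 0.000203 in the authors' deposited table). Right after the cut, DGCR2 was at 11.0 and 51.9 FPKM and ESS2 at 9.63 and 26.5 FPKM.

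Of the 10 genes before this edge 4 were higher in K562, and of the 10 after it 9 were. Among the genes nearer the centromere, some were thus also higher in K562. The V-type proton pump subunit gene ATP6V1E1 was at 49.6 (MOLT4) and 146 FPKM (K562), and BCL2L13, a BCL2 family gene, was at 20.6 and 57.9 FPKM. Both were called in the authors' deposited table (q = 0.000203). Before them IL17RA, HDHD5 and ADA2 were lower in K562, with the secreted adenosine deaminase gene ADA2 at 23.7 and 0.0728 FPKM, whereas the 4 genes before those were all higher. Of these, the pseudogene TPTEP1 was at 21.6 and 76.0 FPKM, and AP000547.3, which shares its locus, at 37.0 and 245 FPKM. BID, a cell death gene next to BCL2L13, was at 49.3 (MOLT4) and 37.2 FPKM (K562). High and low genes thus alternated over this stretch.

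**Figure D3:**
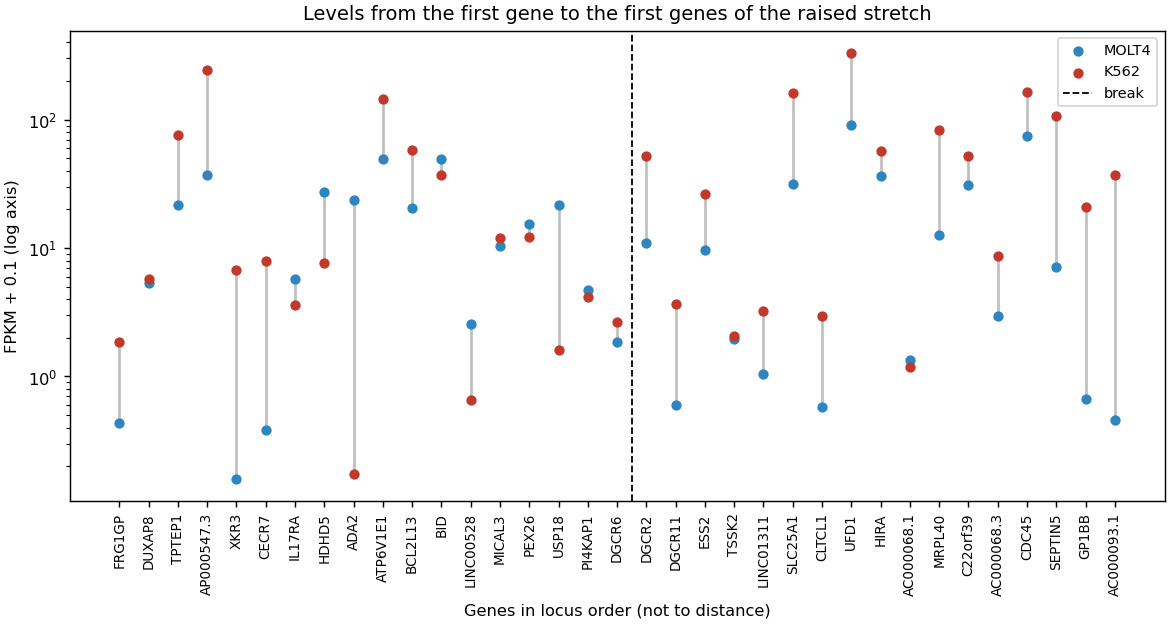
FPKM plus 0.1 on a log axis in MOLT4 (blue) and K562 (red) for the first 18 genes of the chromosome and the first genes of the raised stretch, in locus order, with the break of the 4-block cut dashed. Red points lie above blue for 10 of the 18 genes before the break and for nearly all genes shown after it.

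Within the raised stretch from DGCR2 to BCR, 61 of 70 genes (87.1%) were higher in K562, against 52.2% of all genes at this level. Of the 70, 53 reached 1 FPKM in both lines, 15 in K562 alone and 2 in MOLT4 alone. The 15 and the 2 could pass the filter only through the line in which they are high. A total of 51 genes (72.9%) were at least 2-fold higher in K562 and 2 at least 2-fold higher in MOLT4, compared with 24.7% and 19.6% of all genes. The authors' deposited table called 46 upward in K562 (65.7%) and 2 upward in MOLT4 (2.86%), against 25.3% and 20.8% of all genes at this level, which is a description, since the stretch was cut from the same contrast. Ratios were mostly moderate, with quartiles at 0.73 and 2.14, and 33 of the 70 lay between 2-fold and 6-fold. They also differed with level. The 27 genes with a mean of 25 FPKM or more were all higher in K562, with a median of 1.96. The 23 genes from 5 to 25 FPKM had a median of 1.35, with 22 higher in K562. The 20 genes from 1 to 5 FPKM had a median of 1.05. Of these 20, 12 (60%) were higher in K562, against 50.8% of all genes from 1 to 5 FPKM. The added 1 FPKM makes the ratios of low genes smaller, so these medians cannot be compared closely. The corresponding medians over all genes were 0.13, 0.0072 and 0.029. Protein-coding genes of the proximal block (61 genes, median 1.43) and its other genes (27 genes, median 1.08) were both shifted.

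The common 22q11.2 deletion interval begins near DGCR6 and covers the first section of the stretch. Of 41 listed rows, 34 had a ratio, and 33 of these were higher in K562. The authors' deposited table called 25 of the 34 toward K562 (73.5%), 1 toward MOLT4 (2.94%) and left 8 uncalled. Over all genes at this level the calls made up 25.3% toward K562 and 20.8% toward MOLT4. This is a description, since nearly all of the list lies in a stretch cut from these ratios. Of the 34, 4 reached 1 FPKM in K562 alone. The median of the 34 was 2.59-fold with 1 FPKM added. The most abundant was RANBP1, a cofactor of the nuclear transport GTPase Ran, at 401 (MOLT4) and 913 FPKM (K562). UFD1, which acts in ubiquitin-dependent protein turnover, was at 90.0 and 333 FPKM, and SLC25A1, the mitochondrial citrate carrier, at 31.6 and 161 FPKM. CDC45, a part of the replicative helicase, was at 74.8 and 164 FPKM. CRKL, an adaptor protein gene whose product binds the BCR-ABL1 kinase, was at 43.0 (MOLT4) and 117 FPKM (K562). Their known functions differ, and each was called in the authors' deposited table (q = 0.000203).

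Larger and smaller ratios stood side by side in this interval. SEPTIN5, a septin filament gene, was at 6.99 (MOLT4) and 107 FPKM (K562), which is 15.3-fold as deposited, and GP1BB, which encodes a platelet adhesion receptor chain and shares the locus, was at 0.572 and 20.6 FPKM but missed the threshold in the authors' deposited table (q = 0.0760). TBX1, a developmental transcription factor gene, was at 0.169 and 8.67 FPKM, and the catenin family gene ARVCF at 1.10 and 10.3 FPKM. At the other end, the histone chaperone gene HIRA was at 36.0 and 56.6 FPKM (q = 0.0705), and DGCR8, a partner of DROSHA in microRNA processing, at 18.7 and 28.0 FPKM (q = 0.393), neither of them called in the authors' deposited table. RTN4R, the Nogo receptor gene, was the exception in direction, at 4.39 (MOLT4) and 2.26 FPKM (K562) (q = 0.00234 in the authors' deposited table).

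In a list of named genes from the end of that interval to BCR, which leaves out VPREB1, pseudogenes and unnamed rows, 13 of 14 genes with a ratio were higher in K562. All 13 were called in the authors' deposited table, or 92.9% of the list against 25.3% of all genes at this level. This is a description, since the list lies in a stretch cut from these ratios. Of the 14, 3 reached 1 FPKM in K562 alone. The median of the 14 was 4.26-fold with 1 FPKM added. UBE2L3, a ubiquitin-conjugating enzyme gene, was at 64.1 (MOLT4) and 256 FPKM (K562). SDF2L1 of the endoplasmic reticulum was at 30.8 and 123 FPKM, PPM1F, a protein phosphatase gene, at 8.26 and 58.0 FPKM, and TOP3B, a topoisomerase gene, at 17.3 and 47.4 FPKM. The transcriptional repressor gene HIC2 (21417371 to 21451463) was at 2.50 and 38.8 FPKM, 15.5-fold as deposited, with a log2 ratio of 3.51 against 3.76 for SEPTIN5. Within that list YPEL1 was lower in K562, at 12.1 (MOLT4) and 6.32 FPKM (K562), without a call (q = 0.198 in the authors' deposited table).

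In all, 9 genes of the raised stretch were lower in K562. Besides RTN4R and YPEL1 they were VPREB1 and the noncoding or unnamed genes AC000068.1, AC007663.4, AP000553.2, AP000553.7, AC245060.5 and AC245060.7. VPREB1, the other part of the surrogate light chain, was listed at 0 in K562 against 6.45 FPKM in MOLT4, and it was called in the authors' deposited table (q = 0.000203). None of the 6 others was called there, and their levels stayed between 0.937 and 3.36 FPKM in either line.

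**Figure D4:**
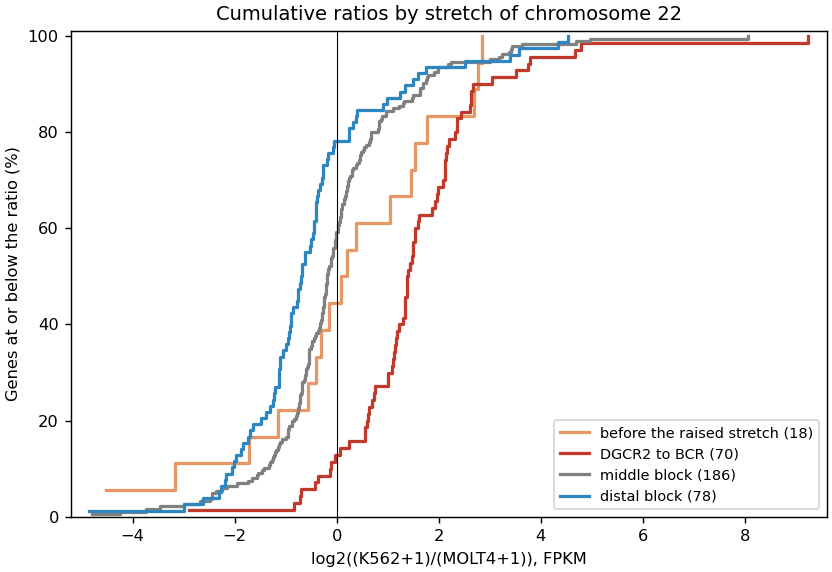
Percentage of genes at or below each log2 ratio for the 18 genes before the raised stretch (orange), the 70 genes from DGCR2 to BCR (red), the middle block (grey) and the distal block (blue). The red curve lies to the right, with 87.1% of its genes above 0, while the blue curve lies to the left.

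Just beyond BCR the direction changed. Of 17 rows with a ratio in the list that runs from RGL4 to GGT1, which has 2 rows itself and near-identical copies, 13 had the larger value in MOLT4. By the authors' deposited table, 7 were called upward in MOLT4 and 2 upward in K562, and 8 were not called, so that 52.9% were called against 46% of all genes at this level. SMARCB1, a core subunit of the SWI/SNF chromatin remodeller, was at 129 (MOLT4) and 52.8 FPKM (K562) (q = 0.000916), the cytoskeletal gene SPECC1L at 27.2 and 13.2 FPKM (q = 0.000391), and the adenosine receptor gene ADORA2A at 5.79 and 0.323 FPKM (q = 0.000203 in the authors' deposited table). SNRPD3, a spliceosome core gene, was close in both lines at 88.5 and 76.0 FPKM. CHCHD10, a mitochondrial intermembrane space gene located 445 kb beyond the end of the BCR locus, was an exception at 25.4 (MOLT4) and 124 FPKM (K562). With 5 blocks, the genes from AP000344.1 to GUCD1 formed a short block of their own, 18 genes with a median of -0.68.

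The median of the middle block lay near 0, at -0.18, but more of its genes were higher in MOLT4 (110) than in K562 (76). The share higher in K562 was 40.9%, against 52.2% of all genes at this level. Of its 186 genes, 36 were at least 2-fold higher in K562 and 36 at least 2-fold higher in MOLT4. The authors' deposited table called 31 of them (16.7%) toward K562 and 52 (28.0%) toward MOLT4, against 25.3% and 20.8% of all genes at this level. Of 25 genes of general cell functions, 28% were called in the authors' deposited table, against 46% of all genes at this level. Among the 25, 18 were not called, 6 (24%) were called upward in MOLT4 and 1 (4%) upward in K562. The median of the 25 was 0.844-fold with 1 FPKM added. All lie in the middle block except NDUFA6. The list was chosen with earlier results known and holds no gene of the raised stretch, so its share does not stand for such genes in general. RPL3, a protein of the large ribosomal subunit and the most abundant gene of the chromosome, was at 1335 (MOLT4) and 1278 FPKM (K562), and SF3A1, a splicing factor gene, was at 114 and 113 FPKM. MCM5, a part of the replicative helicase, was at 166 and 86.8 FPKM. The translation initiation factor gene EIF3L was at 414 and 285 FPKM, and ATF4, a stress response transcription factor gene, at 359 and 299.5 FPKM. The largest called folds of the block, among genes whose lower value reached 1 FPKM, were those of MPST, TPST2 and CHCHD10 toward K562 and of RGL4, IFT27 and APOL6 toward MOLT4. TPST2, a tyrosine sulfation enzyme gene, was at 9.17 and 44.9 FPKM, and IFT27, an intraflagellar transport gene, at 10.6 and 1.08 FPKM.

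Gene families in the middle block split. Of 5 APOL genes with a ratio, which encode apolipoprotein L proteins, the authors' deposited table called 3 upward in MOLT4 (60%) and 2 upward in K562 (40%). The shares over all genes at this level were 20.8% and 25.3%. APOL3 was at 17.2 (MOLT4) and 0.642 FPKM (K562), and APOL4 was at 0.0693 and 12.3 FPKM. Among 7 genes of the APOBEC3 and CBX cluster, the authors' deposited table called the deaminase genes APOBEC3B and APOBEC3C higher in K562. It called the polycomb genes CBX6 and CBX7 higher in MOLT4, and 3 were not called. These calls made up 28.6% in each direction, near the 25.3% toward K562 and 20.8% toward MOLT4 of all genes at this level. CBX6 was at 18.8 and 8.45 FPKM. APOBEC3B and its neighbours share sequence, so their values are uncertain. LGALS1, the gene of galectin-1, had the largest ratio beyond BCR, at 0.465 (MOLT4) and 388 FPKM (K562). RAC2, a blood cell GTPase gene, was at 98.4 and 103 FPKM, and the non-muscle myosin gene MYH9 at 95.5 and 41.4 FPKM. Of 11 cancer genes with a ratio, 4 were called in each direction in the authors' deposited table (36.4% each, against 25.3% toward K562 and 20.8% toward MOLT4 of all genes at this level). The 4 higher in K562 were CRKL, LZTR1 and BCR of the raised stretch and XBP1, a stress response factor gene, at 39.3 and 85.4 FPKM. EWSR1 and NF2, both beyond BCR, were at 248 and 23.9 FPKM in MOLT4 and 147 and 11.9 FPKM in K562.

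In the distal block 61 of 78 genes were higher in MOLT4. The authors' deposited table called 34 upward in MOLT4 (43.6%) and 9 upward in K562 (11.5%), against 20.8% and 25.3% of all genes at this level, and 42.3% were at least 2-fold higher in MOLT4, against 19.6% of all genes. ATXN10, the most abundant gene of the block, was at 165 (MOLT4) and 75.8 FPKM (K562). NDUFA6 of respiratory complex I was at 111 and 84.5 FPKM, and SREBF2, a regulator of cholesterol synthesis genes, at 72.5 and 54.8 FPKM. By the same rule the largest called folds included those of ADM2 and FAM118A toward K562 and of MLC1, RTL6 and CPT1B toward MOLT4. FAM118A was at 11.7 and 34.9 FPKM, and CPT1B, which imports fatty acids into mitochondria, at 11.0 and 1.66 FPKM. The centromere protein gene CENPM near the start of the block was at 49.8 and 14.6 FPKM. Among the last bands of the chromosome, 18 of 24 genes with a ratio were higher in MOLT4, with 11 called upward in MOLT4 (45.8%) and 3 upward in K562 (12.5%) in the authors' deposited table, against 20.8% and 25.3% of all genes at this level. The condensin subunit gene NCAPH2 was at 51.1 and 26.3 FPKM, and the chromatin reader gene BRD1 at 22.5 and 7.44 FPKM. RABL2B, the last gene with a ratio in that list, was at 9.90 and 1.78 FPKM. Against this trend, the kinase gene MAPK12 was at 0.460 (MOLT4) and 14.4 FPKM (K562), and the nearby plexin gene PLXNB2 at 0.0745 and 11.8 FPKM. MAPK11, which lies between them, was at 3.24 (MOLT4) and 4.02 FPKM (K562) and was not called in the authors' deposited table. Under the alternatives that gave a break in this region, the start of the block lay between 40951347 and 41938737.

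The raised stretch was set beside the other chromosomes. Of 492 steps of 2 Mb with at least 10 genes on the autosomes and X, the step at 20 to 22 Mb ranked 8 and the step at 18 to 20 Mb ranked 11 from the K562 side. The 7 steps above it held 10 to 18 genes each. Among 182 steps with at least 20 genes, those 2 steps ranked 1 and 3, and among 901 steps with at least 5 genes they ranked 38 and 43. Of 260 pairs of adjoining steps with at least 10 genes each, this pair had the highest lower median, 1.35, followed by a pair on chromosome 18 with 1.19. Over all runs of 70 neighbouring genes with a ratio, the highest median of any chromosome was the 1.39 of the run from DGCR2 to BCR, and the next was 1.14 on chromosome 6. The length of 70 was taken from that same stretch, which favours it. These ranks are descriptions, and chromosome 22 was selected for this pattern.

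**Figure D5:**
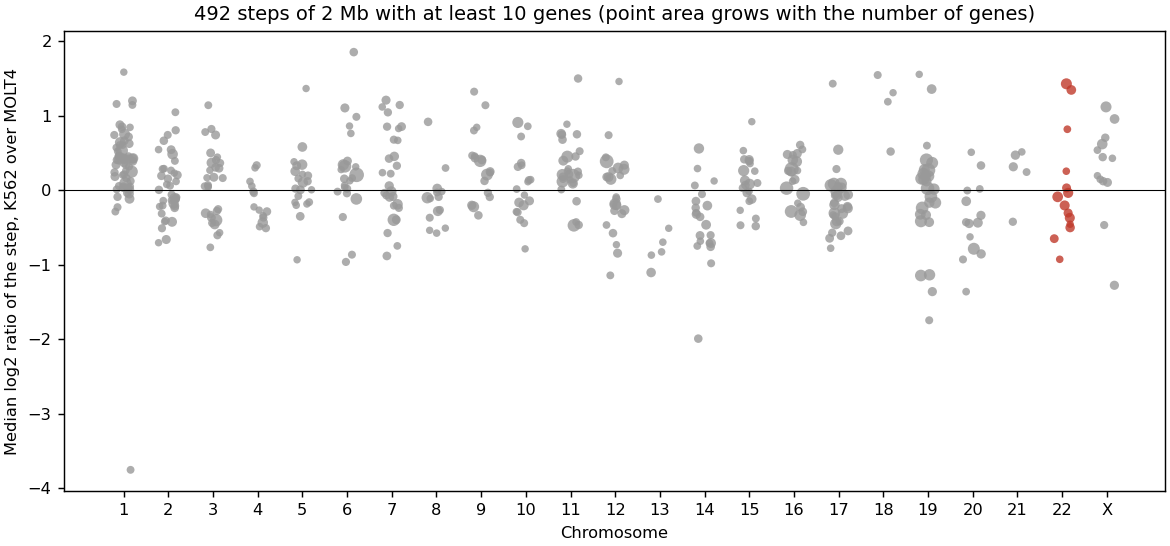
Median log2 ratio of each of 492 steps of 2 Mb with at least 10 genes, by chromosome, with point area growing with the number of genes and chromosome 22 in red. The steps at 18 to 20 Mb and 20 to 22 Mb of chromosome 22 sit at 1.35 and 1.43, while its other steps shown lie between -0.93 and 0.82.

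Upstream sequence was compared across the stretches for the genes that RefSeq lists. Of the 70 genes of the raised stretch 42 had an upstream window, as had 112 of the middle block and 56 of the distal block. The GC box GGGCGG, on either strand, was in 71.4% of the windows of the raised stretch. It was in 66.1% of the middle block, 82.1% of the distal block and 71.2% of all chromosome 22 genes with a ratio. Over all 27305 windows of 250 bases the share was 42.3%. Those 27305 were taken without a filter on level, unlike the chromosome 22 windows, so they are not a matched background for any of these counts. AGATAA was in 0 of 42, 9 of 112 and 3 of 56 windows, against 5.94% for chromosome 22 genes with a ratio and 9.37% of all. Median CpG counts were 29, 22 and 28.5 per window, 24 for chromosome 22 genes with a ratio, and 11 over all. A match is not a binding site, and no match says only that these letters are not in the window.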

How the data were processed

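RNA of 1 sample each of K562 and MOLT4 was sequenced. The submitters' processing notes list Cuffdiff, Cufflinks 2.2.2, TopHat2 2.1.1 and CASAVA 1.8.2, with hg38 and GRCh38.p13 as builds. The authors deposited 1 FPKM value per gene and line with a Cuffdiff p-value and q-value, and the sources used here do not say whether these combine the 3 biological replicates of the series design. Should each line rest on a single library, the q-values compare libraries. No spread, interval or test of the lines could therefore be computed. Positions are the deposited loci with 1 added to the start: of 518 loci with a single gene, 461 then equalled the GENCODE release 29 start and 1 did so as deposited. Gene types came from GENCODE release 29, to which 97.1% of the rows matched. Ratios, steps and blocks were computed with Python 3.11.15, pandas 2.3.3 and NumPy 2.4.6. The cutting of blocks was also tried on simulated data, whose outcome is not reported here, so that trial lends no support to any break. Calls are those with a deposited q of at most 0.05, as adjusted by Cuffdiff. Members and lists were chosen with earlier results of these data known. Named genes are BCR, the 5 genes on each side of a break, the 3 largest called folds in each direction and the 3 most abundant genes per block, and members of the lists, of which a few are given and some are not reported here. Of the named genes, those before the centromere break and the exceptions were chosen after their values were seen.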

Additional observations from a re-analysis of the deposited data

How the results depend on the processing

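Of 70 alternative values for the medians, breaks, call counts and ranks, 58 stayed close to the reported ones. A break that a setting no longer placed was not among the 70. Keeping only tested genes left the same 352 genes, so those values could not move. The block medians kept the reported cuts under every setting, also where the cut itself moved. A median counted as close within 1.5-fold and with the same sign, a break within 2 Mb, and a count or rank within 1.5 times. Without a filter on low values (848 genes above 0 in at least 1 line), the medians moved to 0.063 in the proximal and -0.089 in the distal block, where the pseudocount of 1 FPKM holds the ratios of low genes near 0, and both breaks fell before BCR (2 in place of 0), at 19036282 and 21652270. Across the other alternatives the proximal median lay between 1.19 and 1.53 and the distal one between -0.87 and -0.69. The number of breaks before BCR was 1 in place of 0 with 4 blocks, with 5 blocks, with least squares, with at least 1 FPKM in both lines and with genes within 8-fold. Under the last 2 settings the first break beyond BCR was 41800679. With 5 blocks the next break beyond BCR was 24555958. The cause was not tested. With steps of at least 5 genes, the step at 20 to 22 Mb ranked 38 of 901. With other pseudocounts, 42 log2 ratios of genes named by rule stayed within 1.5-fold and 12 moved further. Protein-coding genes alone, an alternative chosen after seeing the data, gave 1.43, -0.16 and -0.82 for the 3 blocks. No paired analysis was possible because 1 value per line was used and the labels carry no replicate numbers. No replicate could be left out for the same reason.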

Other observations

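A pair of adjoining genes in the distal block lay far apart in opposite directions, while a pair in the middle block did not. These pairs were picked after their values were known. PARVB and PARVG, which encode related actin-binding adhesion proteins, abut at 44172949 and 44172956. PARVB was at 0.272 (MOLT4) and 28.3 FPKM (K562), while PARVG was at 28.9 (MOLT4) and 0.0308 FPKM (K562), and both were called in the authors' deposited table (q = 0.000203). MPST and TST, paralogous sulfurtransferase genes that share a locus, instead moved together, at 1.29 and 0.0760 FPKM in MOLT4 and 19.8 and 10.6 FPKM in K562. TST missed the threshold in the authors' deposited table (q = 0.0823). Across the chromosome 13 genes reached 5 FPKM in either line while staying under 0.1 FPKM in the other. They include the linker histone gene H1F0 at 27.8 (MOLT4) and 0.0428 FPKM (K562), and CDC42EP1, listed at 0 in MOLT4, at 24.8 FPKM in K562. Of the 13, ADA2, IGLL1, TST and TSPO were not called in the authors' deposited table (q = 0.0812, 0.359, 0.0823 and 0.341). The share of such genes over all genes was not computed, so whether 13 is unusual is not known.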
